A study of Homo sapiens with 6 samples.

Results

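The heat shock proteins, the J-domain (DNAJ) proteins and the subunits of the cytosolic chaperonin made up 88 of the 37879 targets on the arrays, a target being the signal of 1 gene. They were chosen by symbol: every symbol that starts with HSPA, HSPB, HSPD, HSPE, HSPH, HSP90 or DNAJ, TCP1, and every CCT symbol that goes on with a digit, with 1 HSPA symbol not included. The study asked which mRNAs go with Staufen1 (Stau1), a protein that binds double-stranded RNA, in dividing cells. All 6 samples were HEK293T cells, a human embryonic kidney line, arrested in prometaphase by nocodazole, a drug that stops the assembly of microtubules, at 50 ng/ml for 15 h by the labels. The study's methods give a longer treatment. The 3 control IP samples came from cells transfected with the empty vector. The 3 Stau1 IP samples came from cells that expressed Stau155-FLAG, a tagged form of Stau1, from a plasmid. RNA recovered with the anti-FLAG antibody was labelled and hybridised in either group. The values therefore describe RNA that came down with a tagged protein made from a plasmid or with the antibody alone. The study reported less of the tagged protein than of endogenous Stau1 in these cells. Arrays of total RNA were not used here. For that reason less of a transcript in the cells, fewer cells in prometaphase and less of a transcript in the precipitate cannot be told apart from these values. The study did compare total RNA of the transfected prometaphase cells and reported few probes past a 2-fold change. By the labels, the change of every member given below was smaller than that. The labels do not say whether the samples of a group came from separate cultures, and p-values then measure only the spread between these arrays.

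Chaperones bind unfolded proteins and help them to fold. Hsp70 proteins (HSPA) grip and release their clients by the use of ATP, J-domain proteins bring clients to Hsp70 and stimulate its ATPase, and Hsp90 proteins mature kinases and receptors. HSPD1 with its lid HSPE1 is the chaperonin of mitochondria, the ring of TCP1 and the CCT subunits folds actin and tubulin in the cytosol, and small heat shock proteins (HSPB) hold unfolded proteins in solution. Many of these genes are induced by the heat shock factor HSF1 through heat shock elements in their promoters. The symbols made 8 role groups: 13 HSPA, 8 HSP90 with HSPH1, 2 HSPD1 with HSPE1, 9 HSPB, 4 DNAJA, 12 DNAJB, 29 DNAJC and 11 TCP1 with CCT targets. The HSPB group holds HSPBP1 and HSPBAP1, which share the letters of the symbol but are partners of Hsp70 and of HSPB1 and not small heat shock proteins. The HSP90 group holds 4 pseudogenes, HSP90AB2P, HSP90AB4P, HSP90AB6P and HSP90B3P, and the chaperonin group holds CCT6P1.

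The 6 arrays were alike in brightness, with a median signal of 87.9 to 102 and 11635 to 13054 targets detected, a target being detected at a detection p under 0.05. Markers of HEK293T cells were detected for 6 of 6 listed genes (5 of them on all 6 arrays, PAX2 on 1), and all 8 listed genes of prometaphase cells were detected on all 6 arrays. Among markers of blood, liver and muscle, HBB, PTPRC, CD3E, ALB, APOA1 and MYH7 were detected on no array, while ACTA1 was detected on all 6. STAU1 itself read 2499, 3246 and 2758 in control IPs 1, 2 and 3 and 2845, 1857 and 3130.1 in Stau1 IPs 1, 2 and 3, with no separation of the groups. The position of its probes in the mRNA is not given in the table, so this signal does not check the labels. The array labelled Stau1 IP 2 stood apart from its group, and the array labelled control IP 2 was about as near to either group. Both were compared with the others across the 52 chaperone targets detected on all 6 arrays, which are genes and not independent replicates. The normalised log2 signals of the array labelled Stau1 IP 2 correlated at 0.956 with Stau1 IP 1 and 0.959 with Stau1 IP 3. With control IPs 1, 2 and 3 they correlated at 0.976, 0.964 and 0.985. The array labelled control IP 2 correlated at 0.988 and 0.985 with control IPs 1 and 3, and at 0.990 with both Stau1 IP 1 and Stau1 IP 3. Groups were kept as labelled. The arrays numbered 2 are given singly, and the groups were compared over all 6 arrays and over the arrays numbered 1 and 3.

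Heat shock elements were looked for in the promoters, since many members are known for this shared control and those that hold it had unlike values in the precipitates. Promoter sequences from RefSeq (GRCh38.p14, 250 bases before to 50 bases after the gene start) were used for 75 of the 88 members. The letters GAANNTTCNNGAA or, on the other strand, TTCNNGAANNTTC, which are 3 units of the element in a row with no mismatch, stood in 7 of these 75 promoters (9.33%) and in 172 of 35116 RefSeq promoters (0.49%). The 7 were DNAJA1, DNAJB6, HSP90AA1, HSP90AB1, HSPA6, HSPA8 and HSPD1. The match of DNAJA1 did not lie wholly before the gene start, and stretches were extracted only for matches that did. None of 25 DNAJC promoters and none of 9 promoters of the TCP1 and CCT group held the letters. A match describes these letters only. The stretches of 5 members are shown because their signals are compared further on, 5′ to 3′ on the strand of the gene with the match in capitals:
HSP90AA1, chr14:102087111-102087140, minus strand: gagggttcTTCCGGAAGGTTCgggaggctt
HSP90AB1, chr6:44247823-44247852, plus strand: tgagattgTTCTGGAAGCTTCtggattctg
HSPA8, chr11:123062170-123062199, minus strand: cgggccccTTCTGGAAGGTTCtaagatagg
HSPD1, chr2:197500059-197500088, minus strand: attttctgGAAAGTTCTGGAAccgagcgag
DNAJB6, chr7:157336865-157336894, plus strand: agagccgaGAACCTTCGCGAAggtggggcg
The first base of the match lay 88 bases before the gene start in HSP90AA1, 112 in HSP90AB1, 55 in HSPA8, 240 in HSPD1 and 131 in DNAJB6. HSP90AB1 and HSPA8 each held another match in the same window, and HSPD1 one that overlaps the match shown.

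Most of the family was present in the precipitates of both groups. Of the 88 members, 52 (59.1%) were detected on all 6 arrays, against 26.1% of all targets, and 22 (25%) on none, against 59.5%. Per array, 56 to 64 members were detected. TCP1 and 8 CCT genes of the 11 targets of the cytosolic chaperonin were detected on all 6 arrays (CCT6P1 and CCT8L2 were not), as were both mitochondrial chaperonin genes and 18 of 29 DNAJC members. Only 4 of 9 HSPB targets were, and 2 of those were HSPBP1 and HSPBAP1. HSPA1A, the heat-inducible Hsp70, was detected on no array at 69.5 to 89.4, while its near-identical copy HSPA1B gave 13118 to 18488. The table does not give the probe sequences, so the pair is uncertain and the HSPA1B signal cannot be assigned to 1 copy. Detection of a target combines its probes, and a target can miss the mark with a clear signal, as HSPA12A did at 199.9 to 295.

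By the labels, no chaperone transcript was enriched or depleted in the Stau1 IP at the threshold of the study, a fold above 2.5 with an unadjusted limma p under 0.05. That threshold called 0.00264% of all targets enriched (1 target) and 0% depleted, so the count of 0 members is not particular to them. The study, with its own normalisation and t-test, listed more enriched transcripts than that from this experiment. Its list was not reproduced by the labels. The study scored probe sets and gene-level targets were used here, so the 2 counts differ in unit as well. No member reached an adjusted p of 0.05 (limma, Benjamini-Hochberg over all targets), nor did any other target (0%). At an unadjusted p under 0.05, 3 members were higher in the Stau1 IP (3.54% of all targets) and 18 were lower (5.22% of all targets). Among the 52 members detected on all 6 arrays, 3 were higher and 12 lower (23.1%), against 8.2% and 13.8% of all targets so detected. The median log2 fold change, Stau1 IP over control IP, was -0.085 over the 88 members and 0.0024 over all targets, and -0.17 against -0.015 among those detected on all 6 arrays. With no normalisation between arrays the median over all targets shifted to 0.11 and that over the members was -0.0021. In that setting 48.9% of members lay above 0, against 29.5% with the spline normalisation, and 6 members were higher and 7 lower at an unadjusted p under 0.05.

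**Figure D1:**
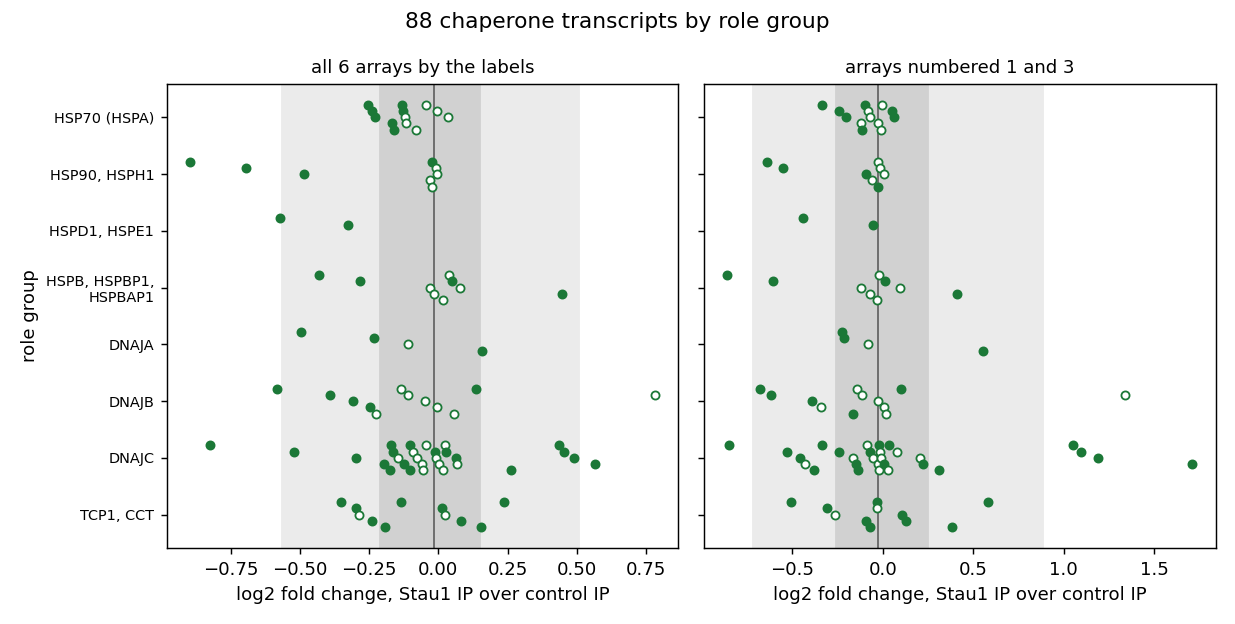
Log2 fold change (horizontal axis, Stau1 IP over control IP) of the 88 chaperone transcripts by role group (vertical axis), for all 6 arrays on the left and the arrays numbered 1 and 3 on the right; filled points were detected on all 6 arrays, the dark and light bands hold the middle 50% and 90% of the 9884 targets detected on all 6 arrays, and the line is their median. By the labels HSP90B1, DNAJC12 and HSP90AA1 lie left of the light band at -0.90, -0.82 and -0.70, and on the arrays numbered 1 and 3 DNAJC24, DNAJB2 and DNAJC30 lie right of it at 1.71, 1.34 and 1.19.

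The Hsp90 transcripts had unlike values. HSP90AA1, the stress-inducible cytosolic Hsp90, read 9882, 9399 and 7892 in control IPs 1, 2 and 3 and 5736, 4937 and 6368 in Stau1 IPs 1, 2 and 3. Every Stau1 IP array was below every control IP array, the array labelled Stau1 IP 2 was the lowest of all, and the log2 fold change was -0.70 (SE 0.14, limma adjusted p = 0.24). HSP90B1, its relative in the endoplasmic reticulum, read 6171, 6763 and 4039 in the control IPs and 3055, 2417 and 3520.3 in the Stau1 IPs, again with no overlap, and had the lowest log2 fold change of the 88 members by the labels, -0.90 (SE 0.21, limma adjusted p = 0.296). HSP90AB1, the cytosolic Hsp90 made without stress, read 11932, 12071 and 11702 in the control IPs and 9891, 12365 and 12418 in the Stau1 IPs. Its groups overlapped, and the 95% interval of its log2 fold change, -0.15 to 0.11, lay wholly above the interval of HSP90AA1, -1.04 to -0.36. Both promoters held the heat shock element letters shown above. Without the arrays numbered 2 the log2 fold changes were -0.55 for HSP90AA1 (SE 0.099, limma adjusted p = 0.0536), -0.64 for HSP90B1 (SE 0.19, limma adjusted p = 0.187) and -0.03 for HSP90AB1 (95% interval -0.22 to 0.16). HSPH1, a helper that exchanges the nucleotide of Hsp70, read 2064, 2284 and 1728 in the control IPs and 1879.8, 805 and 2041 in the Stau1 IPs, where the low value was the array labelled Stau1 IP 2; it is outside the rule for named genes and was chosen after its values were seen. The 4 Hsp90 pseudogenes were at 67.4 to 109.7 on all arrays and reached the detection mark on at most 1.

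The mitochondrial chaperonin pair had lower values in the Stau1 IP by the labels. HSPE1 read 3507, 3412 and 2737 in control IPs 1, 2 and 3 and 2500.3, 1792 and 2323 in Stau1 IPs 1, 2 and 3, with no overlap and a log2 fold change of -0.57 (SE 0.15, limma adjusted p = 0.355). HSPD1 read 5603, 6091 and 4997 in the control IPs and 5011, 3312 and 5455 in the Stau1 IPs, and here the array labelled Stau1 IP 2 alone lay far below the rest. The log2 fold change of HSPD1 on the arrays numbered 1 and 3 was -0.055 (95% interval -0.22 to 0.11) and that of HSPE1 was -0.44 (SE 0.15, limma adjusted p = 0.245).

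Among Hsp70 transcripts HSPA8, the constitutive cytosolic Hsp70, read 25518, 22239.5 and 22881 in control IPs 1, 2 and 3 and 16828, 25968 and 18999 in Stau1 IPs 1, 2 and 3. The Stau1 IP arrays 1 and 3 were the lowest of the 6 and, before normalisation, the array labelled Stau1 IP 2 the highest. In normalised log2 signal that array was at 14.631, just below control IP 1 and 3 at 14.655 and 14.643. HSPA8 fell by 0.34 on the log2 scale on the arrays numbered 1 and 3 (SE 0.042, limma adjusted p = 0.0236), whereas by the labels its change was -0.16 (SE 0.11, limma adjusted p = 0.792). HSPA9, the Hsp70 of mitochondria, read 3867, 4486 and 3345 in the control IPs and 3473, 2894 and 4411 in the Stau1 IPs, with overlap and a log2 fold change whose 95% interval was -0.56 to 0.22 by the labels. HSPA1B overlapped likewise, at 13539.8, 18172 and 18488 on the control IPs and 13810.1, 13118 and 17502 on the Stau1 IPs. Of the 13 HSPA targets 2 had no overlap between the labelled groups in normalised signal, HSPA4 and HSPA13 (the second detected on no array), both with lower values in the Stau1 IP (15.4%, against 7.86% of all targets with lower values and no overlap). HSPA4 and HSPA13 were picked out after their values were seen. Among HSPA targets detected on all 6 arrays the share was 14.3%, against 14.9% of all targets so detected.

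HSPBP1, which binds Hsp70 and promotes the release of its nucleotide, had the lowest adjusted p by the labels among members with higher values in the Stau1 IP. It read 206, 231 and 181 in control IPs 1, 2 and 3 and 303, 275 and 311 in Stau1 IPs 1, 2 and 3, so that all Stau1 IP arrays, the array labelled Stau1 IP 2 included, lay above all control IP arrays. The log2 fold change was 0.45 (SE 0.064, limma adjusted p = 0.171) by the labels and 0.41 (SE 0.083, limma adjusted p = 0.072) on the arrays numbered 1 and 3. HSPB1, the small heat shock protein Hsp27, read 4448, 3771 and 3828 in the control IPs and 2253, 5358 and 2455 in the Stau1 IPs. The Stau1 IP arrays 1 and 3 were the lowest and the array labelled Stau1 IP 2 the highest of the 6. HSPB1 fell on the arrays numbered 1 and 3, with a log2 fold change of -0.86 (SE 0.08, limma adjusted p = 0.0131, 1.81-fold higher in the control IP), while by the labels the change was -0.43 (SE 0.30, limma adjusted p = 0.808). HSPBAP1, a protein that binds HSPB1, read 531, 453 and 508 in the control IPs and 373, 472 and 369.8 in the Stau1 IPs. It fell in the same comparison by 0.61 on the log2 scale (SE 0.072, limma adjusted p = 0.0205), and by the labels the change was -0.28 (SE 0.20, limma adjusted p = 0.806).

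**Figure D2:**
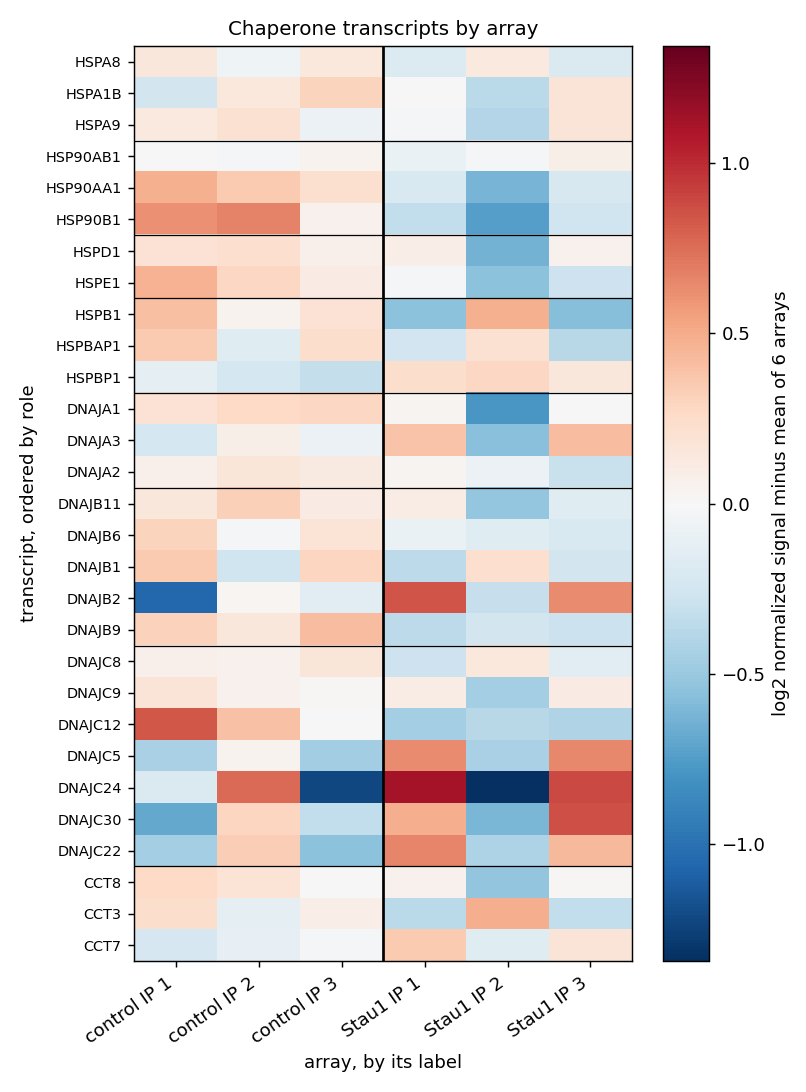
Normalised log2 signal of the 29 named chaperone transcripts (rows, ordered by role) on each array (columns, by label), each minus the transcript's mean over the 6 arrays; red is above and blue below that mean, and lines part the roles and the labelled groups. HSP90AA1, HSP90B1, HSPE1, DNAJB9 and DNAJC12 are lower on all 3 Stau1 IP arrays and HSPBP1 is higher, whereas DNAJC24, DNAJC22 and DNAJC30 are high on Stau1 IP 1 and 3 and on the array labelled control IP 2.

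By the labels, J-domain transcripts had the lowest and the highest log2 fold changes outside the Hsp90 group. DNAJC12, a cytosolic co-chaperone of the enzymes that hydroxylate aromatic amino acids, read 1913, 1644 and 1085 in control IPs 1, 2 and 3 and 818, 835 and 938 in Stau1 IPs 1, 2 and 3, with no overlap and a log2 fold change of -0.82 (SE 0.20, limma adjusted p = 0.312). Without the arrays numbered 2 it was -0.85 (SE 0.28, limma adjusted p = 0.224). DNAJB9, a J-domain protein of the endoplasmic reticulum, read 387, 446 and 449 in the control IPs and 267, 254 and 306 in the Stau1 IPs. Its groups did not overlap, and its log2 fold change was -0.58 (SE 0.075, limma adjusted p = 0.161) by the labels. DNAJB9 fell on the arrays numbered 1 and 3, by 0.68 on the log2 scale (SE 0.059, limma adjusted p = 0.0117). DNAJB11, another J-domain protein of that compartment, read 3319, 4177 and 3278 in the control IPs and 3237, 2197 and 2993 in the Stau1 IPs, lowest on the array labelled Stau1 IP 2. Its log2 fold change was -0.39 (SE 0.16, limma adjusted p = 0.582) by the labels and -0.17 (SE 0.096, limma adjusted p = 0.539) on the arrays numbered 1 and 3.

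Other J-domain members with no overlap by the labels had smaller changes. DNAJB6, a suppressor of protein aggregates, read 2608, 2360.1 and 2477 in control IPs 1, 2 and 3 and 2061, 2044 and 2107 in Stau1 IPs 1, 2 and 3, and its log2 fold change was -0.31 (SE 0.09, limma adjusted p = 0.398) by the labels and -0.39 (SE 0.069, limma adjusted p = 0.0503) on the arrays numbered 1 and 3. DNAJA1, a cytosolic partner of Hsp70, read 7286, 8095 and 7533 in the control IPs and 6136, 3926 and 6745 in the Stau1 IPs, lowest on the array labelled Stau1 IP 2. DNAJA1 and its relative DNAJA2 had log2 fold changes by the labels of -0.50 (SE 0.23) and -0.23 (SE 0.09). On the arrays numbered 1 and 3 these were -0.22 (SE 0.052) and -0.23 (SE 0.12), and neither passed the adjusted threshold in either comparison. In normalised log2 signal, 20 of the 88 members lay lower on every Stau1 IP array than on every control IP array (22.7%, against 7.86% of all targets) and 5 lay higher (5.68%, against 6.4%). Among targets detected on all 6 arrays these were 14 of 52 members (26.9%, against 14.9%) and 3 of 52 (5.77%, against 7.94%). The 5 higher members were HSPBP1, DNAJB12, DNAJC11, DNAJC5G and HSPB9, the last 4 of which are outside the rule for named genes and were picked out after their values were seen.

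**Figure D3:**
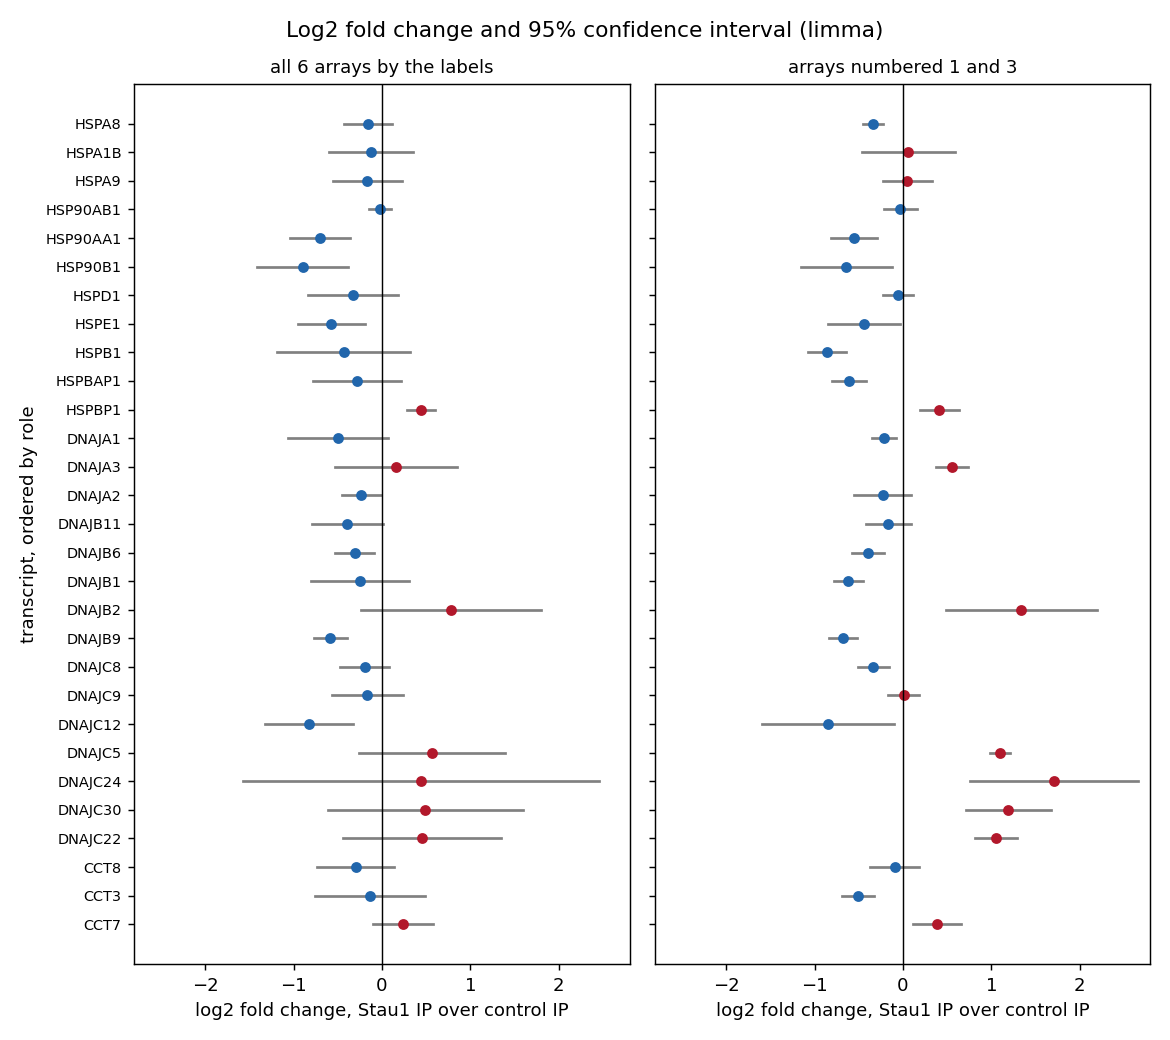
Log2 fold change (horizontal axis, Stau1 IP over control IP) with its 95% confidence interval from limma for the 29 named chaperone transcripts (vertical axis, ordered by role), for all 6 arrays by the labels and for the arrays numbered 1 and 3; blue points lie below 0 and red points above. The interval of DNAJC24 runs from -1.58 to 2.45 by the labels and from 0.76 to 2.66 on the arrays numbered 1 and 3, while those of HSP90AA1, DNAJB9 and HSPBP1 stay on 1 side of 0 in both.

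On the arrays numbered 1 and 3, the 5 members that rose at an adjusted p of 0.05 were J-domain transcripts. So were DNAJB1, DNAJB9, DNAJC3, DNAJC10 and DNAJC17 among the 9 that fell. With 2 arrays a group, 2 members passed the threshold of the study as enriched, DNAJB2 and DNAJC24 (2.27% of members, against 0.612% of all targets), and 0 as depleted (0.037% of all targets). Among targets detected on all 6 arrays, 1.92% of members and 2% of all targets were enriched at that threshold. At an adjusted p of 0.05, 5 members rose, DNAJA3, DNAJC5, DNAJC11, DNAJC22 and DNAJC30, which is 5.68% of members against 3.81% of all targets. In the same comparison 9 fell, DNAJB1, DNAJB9, DNAJC3, DNAJC10, DNAJC17, HSPA8, HSPB1, HSPBAP1 and CCT3, which is 10.2% against 2.69%. Among targets detected on all 6 arrays the shares were 9.62% of members against 11.5% for those that rose and 15.4% against 9.16% for those that fell. At an unadjusted p under 0.05, 11 members were higher (8.79% of all targets) and 26 lower (8.45% of all targets). The 11 were not all J-domain transcripts, as 1 was of the HSPB group and 2 of the TCP1 and CCT group. On both Stau1 IPs, 17 lay higher (21.7%) and 34 lower (25%) than on both control IPs. Among targets detected on all 6 arrays, 10 of 52 members were higher and 21 lower at that p, against 2387 and 2461 of 9884 targets. Of these 52, 13 lay higher and 23 lower with no overlap, against 3167 and 3585 of the 9884. With no normalisation between arrays 10 rose and 6 fell at an adjusted p of 0.05. DNAJC3, DNAJC10, DNAJC11 and DNAJC17 are outside the rule for named genes and are listed because their values passed. None of these 14 adjusted calls held when Stau1 IP 1 or Stau1 IP 3 was left out, and none held with the methods' t-test or with log2 of the signal plus an offset of 16. A different background and normalisation method, neqc, kept DNAJC5 and HSPA8 as calls.

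DNAJC24, a J-domain protein needed to make diphthamide on the translation factor eEF2, read 312, 848 and 146 in control IPs 1, 2 and 3 and 1020.0, 132 and 948 in Stau1 IPs 1, 2 and 3. The array labelled control IP 2 was with Stau1 IP 1 and 3 among the high values, and the array labelled Stau1 IP 2 was the lowest of all. Its log2 fold change was 1.71 (SE 0.36, 3.27-fold, limma adjusted p = 0.0772) on the arrays numbered 1 and 3 and 0.44 (SE 0.81, limma adjusted p = 0.95) by the labels. DNAJC22 read 152, 354 and 143 in the control IPs and 411, 158 and 375 in the Stau1 IPs. DNAJC30, a mitochondrial J-domain protein, read 141, 384 and 192 in the control IPs and 399, 151 and 599.9 in the Stau1 IPs. Either had the same 3 high arrays as DNAJC24, namely Stau1 IP 1, Stau1 IP 3 and the array labelled control IP 2. In the comparison of the arrays numbered 1 and 3, DNAJC22 rose by 1.05 on the log2 scale (SE 0.09, limma adjusted p = 0.0117) and DNAJC30 by 1.19 (SE 0.18, limma adjusted p = 0.0358). By the labels their changes were 0.45 (SE 0.36) and 0.49 (SE 0.44), with overlap between the groups. DNAJC22, DNAJC24 and DNAJC30 were listed by the study from these arrays, so their values are no independent evidence of a direction.

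DNAJC5, the cysteine string protein of secretory vesicles, read 329, 628 and 340.4 in control IPs 1, 2 and 3 and 906, 329.6 and 1007 in Stau1 IPs 1, 2 and 3. Here the array labelled control IP 2 lay between the other control IPs and the Stau1 IPs 1 and 3, and the array labelled Stau1 IP 2 lay with control IP 1 and 3. DNAJC5 had the lowest adjusted p of the family on the arrays numbered 1 and 3, with a rise of 1.10 on the log2 scale (SE 0.043, 2.14-fold, limma adjusted p = 0.0045), and 0.57 (SE 0.33, limma adjusted p = 0.747) by the labels. DNAJB2, a J-domain protein that hands ubiquitin-tagged clients to the proteasome, read 384, 1126 and 871 in the control IPs and 1872, 771 and 1788 in the Stau1 IPs. The Stau1 IP arrays 1 and 3 were its highest and the spread among the control IPs was wide, with a log2 fold change of 1.34 (SE 0.32, 2.53-fold, limma adjusted p = 0.109) on the arrays numbered 1 and 3 and 0.78 (SE 0.41, limma adjusted p = 0.706) by the labels. DNAJA3, a mitochondrial J-domain protein, read 6016, 7899 and 6533 in the control IPs and 8503, 5329.9 and 9785 in the Stau1 IPs. It rose by 0.55 on the log2 scale on the arrays numbered 1 and 3 (SE 0.066, limma adjusted p = 0.0211). By the labels its groups overlapped and its change was 0.16 (SE 0.28, limma adjusted p = 0.948), which became -0.0089 without Stau1 IP 3.

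DNAJB1, the main J-domain partner of Hsp70 in the heat shock response, read 2379.5, 1763 and 2346 in control IPs 1, 2 and 3 and 1517, 2417 and 1829 in Stau1 IPs 1, 2 and 3. The array labelled control IP 2 lay among the Stau1 IPs 1 and 3. The array labelled Stau1 IP 2 was the highest of all before normalisation. In normalised log2 signal it was at 11.32, below control IP 1 and 3 at 11.45 and 11.38. DNAJB1 fell by 0.62 on the log2 scale on the arrays numbered 1 and 3 (SE 0.061, limma adjusted p = 0.0142) and its change was -0.25 (SE 0.22, limma adjusted p = 0.86) by the labels. DNAJC8, a J-domain protein of the spliceosome, read 25679, 25638 and 24632 in the control IPs and 16738, 27882 and 20726 in the Stau1 IPs. The array labelled Stau1 IP 2 was again highest before normalisation, but in normalised log2 signal, at 14.73, it was below control IP 3 at 14.75. The log2 fold change of DNAJC8 on the arrays numbered 1 and 3 was -0.34 (SE 0.066, limma adjusted p = 0.0679), against -0.20 (SE 0.11, limma adjusted p = 0.734) by the labels. DNAJC9, a J-domain protein that handles histones, overlapped in both comparisons, with a 95% interval of -0.17 to 0.18 on the arrays numbered 1 and 3.

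**Figure D4:**
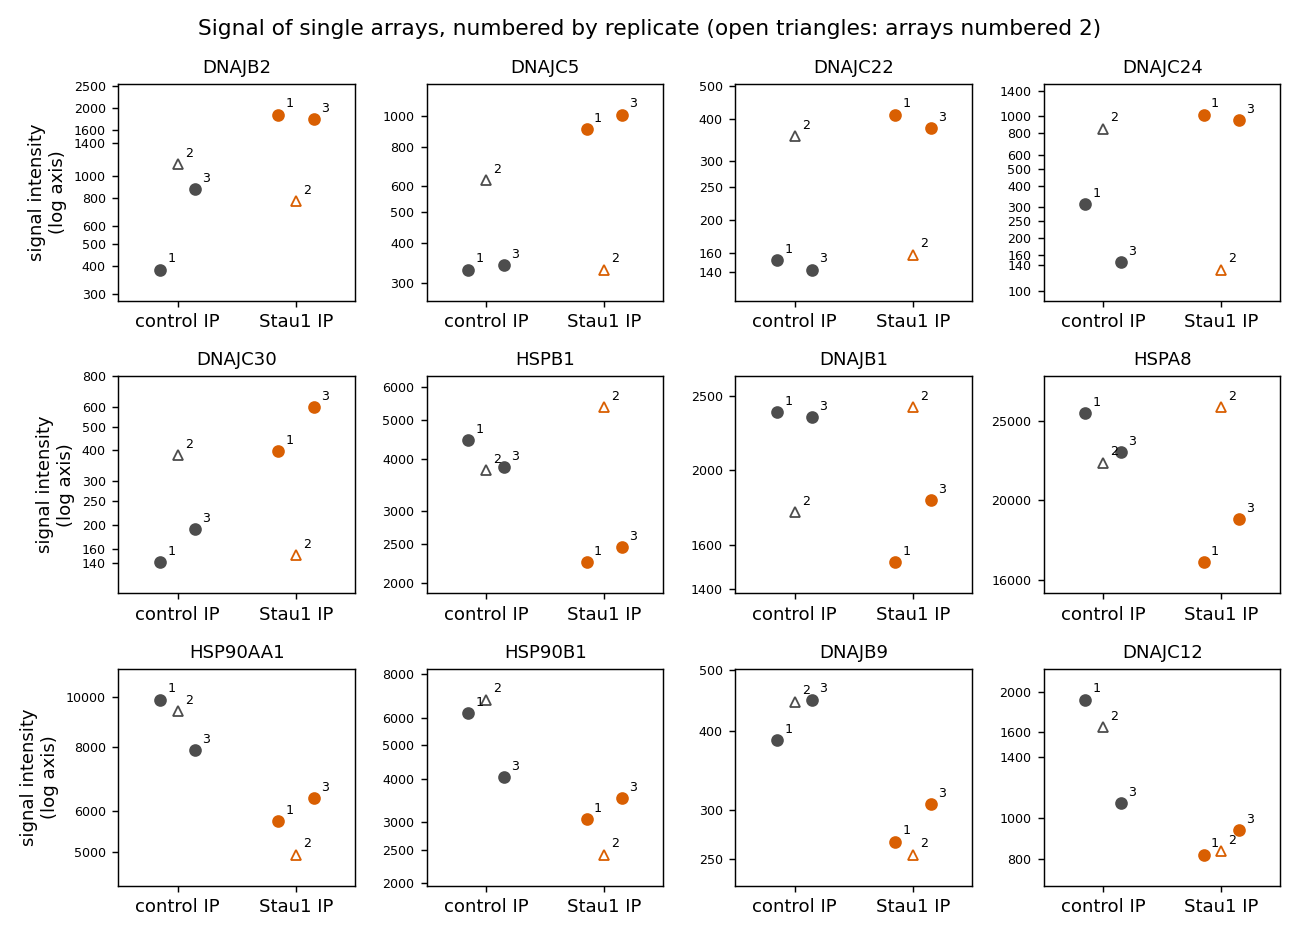
Signal of 12 chaperone transcripts on each array (vertical axis, as deposited, log scale) by labelled group (horizontal axis), with each point numbered by replicate and the arrays numbered 2 as open triangles. For DNAJC22, DNAJC24 and DNAJC30 the triangle of control IP lies far above control IP 1 and 3 and that of Stau1 IP far below Stau1 IP 1 and 3, for HSPB1 and HSPA8 the triangle of Stau1 IP is the highest point, and for HSP90AA1, HSP90B1, DNAJB9 and DNAJC12 the labelled groups do not overlap.

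The subunits of the cytosolic chaperonin, which sit together in 1 ring, had log2 fold changes on both sides of 0, with 4 of the 9 detected on all 6 arrays above 0 in either comparison. CCT3 read 12555, 10060.1 and 10753 in control IPs 1, 2 and 3 and 7493, 15619 and 8598 in Stau1 IPs 1, 2 and 3, with the array labelled Stau1 IP 2 highest, and fell by 0.51 on the log2 scale on the arrays numbered 1 and 3 (SE 0.068, limma adjusted p = 0.0269). CCT7 read 8889, 10067 and 9981 in the control IPs and 11686, 10148 and 11797 in the Stau1 IPs, and its log2 fold change on the arrays numbered 1 and 3 was 0.38 (SE 0.10, limma adjusted p = 0.142). CCT8 read 14628, 14032 and 11418 in the control IPs and 10960.1, 9025 and 12045 in the Stau1 IPs, with a log2 fold change of -0.093 (SE 0.10, limma adjusted p = 0.795) in that comparison and -0.30 (SE 0.17, limma adjusted p = 0.743) by the labels. The intervals of CCT3, -0.69 to -0.33, and CCT7, 0.11 to 0.66, did not overlap on the arrays numbered 1 and 3, while by the labels they did, at -0.75 to 0.48 and -0.10 to 0.58. The median of the 11 targets of this group was -0.14 by the labels and -0.034 on the arrays numbered 1 and 3, and 1 of the 11 passed the adjusted threshold in the second, CCT3 (9.09%, against 2.69% of all targets that fell). Among targets detected on all 6 arrays this was 11.1% of the group against 9.16%. CCT6A and its pseudogene CCT6P1 were the only 2 of the group with no overlap by the labels, in normalised signal, both lower (18.2%, against 7.86% of all targets). CCT6A alone was detected on all 6 arrays (11.1% of the group so detected, against 14.9%), and how much of the signal of such a near copy belongs to either is uncertain.

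The place of the arrays numbered 2 differed from member to member. The array labelled control IP 2 lay nearer to the mean of Stau1 IP 1 and 3 than to that of control IP 1 and 3 for 36 of the 88 members (40.9%, against 50.9% of all targets), and for 21 of the 52 detected on all 6 arrays (40.4%, against 47.3%). The array labelled Stau1 IP 2 lay nearer to control IP 1 and 3 for 44 of 88 (50.0%, against 54.2%) and for 23 of 52 (44.2%, against 60.7%). Both arrays lay nearer to the other label for DNAJC22, DNAJC24, DNAJC30, DNAJB1, HSPA8, HSPBAP1 and CCT3 among the named transcripts past a threshold on the arrays numbered 1 and 3. Neither did for, among others, HSP90AA1, HSP90B1, HSPE1, DNAJB9, DNAJC12 and HSPBP1. Whether these 2 arrays carry each other's label was not tested.

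By role group, the median log2 fold change by the labels was lowest for the 2 mitochondrial chaperonin genes, -0.45, then DNAJA, -0.17, and the TCP1 and CCT group, -0.14. It was -0.13 for HSPA, -0.12 for DNAJB, -0.057 for DNAJC, -0.026 for HSP90 with HSPH1 and 0.018 for HSPB. Targets that were not detected lay near 0 and took part in these medians. Among members detected on all 6 arrays it was -0.59 for the 4 HSP90 and HSPH1 transcripts, with 0 of 4 above 0, against 47.4% of all targets so detected. Of these 4, HSP90AB1 was at -0.021, and HSPH1 was at -0.48 by the labels and -0.092 on the arrays numbered 1 and 3. On the arrays numbered 1 and 3 the medians were -0.32 for those 4, -0.39 for the 5 DNAJB and -0.045 for the 18 DNAJC members detected on all 6 arrays, against -0.025 for all targets so detected.

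Co-chaperones and heat shock factors that work with these proteins were followed as a list of 45 genes. It includes some chaperones that the symbol rule did not take in, such as TRAP1 and CRYAB. Of the 45 genes, 44 were found on the arrays and 31 were detected on all 6. By the labels none passed the adjusted threshold, 2 were higher (4.55%, against 3.54% of all targets) and 11 lower (25%, against 5.22%) at an unadjusted p under 0.05, and the median log2 fold change was -0.10. Among those detected on all 6 arrays the shares were 6.45% against 8.2% and 32.3% against 13.8%. With the arrays numbered 1 and 3, 3 rose (6.82%, against 3.81% of all targets) and 10 fell (22.7%, against 2.69%) at an adjusted p of 0.05. Among those detected on all 6 arrays, 3.23% rose against 11.5% of all targets so detected, and 32.3% fell against 9.16%. PFDN1, a subunit of the prefoldin complex that delivers actin and tubulin to the chaperonin, read 986, 1409 and 965 in control IPs 1, 2 and 3 and 1959.9, 1037 and 2337 in Stau1 IPs 1, 2 and 3, and rose by 0.92 on the log2 scale (SE 0.062, limma adjusted p = 0.00827) on the arrays numbered 1 and 3, against 0.51 (SE 0.28, limma adjusted p = 0.715) by the labels. PDCL3, a phosducin-like partner of the chaperonin, read 4876, 4196 and 3668 in the control IPs and 2096, 3701 and 2533 in the Stau1 IPs, and fell by 0.92 on the arrays numbered 1 and 3 (SE 0.14, limma adjusted p = 0.0366), with -0.68 (SE 0.20, limma adjusted p = 0.398) by the labels. PFDN4, another prefoldin subunit, read 420.1, 330.0 and 239.8 in the control IPs and 157, 199 and 186 in the Stau1 IPs, with no overlap between the labelled groups. Its log2 fold change was -0.95 (SE 0.27, limma adjusted p = 0.161) on the arrays numbered 1 and 3 and -0.75 (SE 0.23, limma adjusted p = 0.417) by the labels, and PFDN1 and PFDN4 lay on opposite sides of 0 in both comparisons. HSF1, the factor that drives the heat shock genes, read 115, 224 and 153 in the control IPs and 244, 255 and 353 in the Stau1 IPs, with no overlap and a log2 fold change by the labels of 0.68 (SE 0.16, limma adjusted p = 0.307). On the arrays numbered 1 and 3 the change of HSF1 was 0.81 (SE 0.16, limma adjusted p = 0.0711), and the gene was chosen after its values were seen.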

How the data were processed

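RNA from anti-FLAG immunoprecipitates of 6 samples was hybridised to Illumina HumanWG-6_V3 BeadChips (3 control IP, 3 Stau1 IP) and recorded with BeadStudio by the authors. The deposited values were gene-level signal intensities with a standard error across beads, a bead number and a detection p-value for each of 37879 targets, without normalisation per the file headers. Probes of a target were already combined by the authors, so probe-level disagreement could not be examined, and the number of arrays limits the precision.

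The authors' chain was rebuilt in R 4.3.3. The background, taken as the median over 200 targets whose detection p-value lay nearest 0.5, was subtracted, a variance stabilizing transformation on the log2 scale was fitted to the bead errors, and a robust spline (mgcv 1.9.3, 10 knots) normalised each array to control IP 2, which stayed the reference in both comparisons. The transformation understates the changes of dim targets. All targets were tested with lmFit and eBayes of limma 3.58.1 in place of the authors' t-test, by the labels with all 6 arrays and with the arrays numbered 1 and 3, since earlier results of these data had put both arrays numbered 2 in doubt. The authors' threshold, a fold above 2.5 with an unadjusted p under 0.05, and a Benjamini-Hochberg adjusted p under 0.05 over all targets were used. The fit was tested on simulated data. With 3 arrays against 3, an exact two-sided permutation test of 1 value cannot go below 0.1, and none was run.

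Named were the members past the authors' threshold, the 3 with the highest mean signal per role group, the 10 and 5 with the largest absolute change without and with the arrays numbered 2 (detected on at least 3 arrays), DNAJC22, DNAJC24 and DNAJC30, and the 3 co-chaperones with the largest absolute change. The members and lists were chosen with earlier results of these data known. Deviations from the means of the labelled groups correlated negatively between samples with the same replicate number (-0.45, -0.77 and -0.38). These means include the arrays numbered 2, so the correlations cannot decide whether samples were paired. The labels name no pairs, and the numbers were not taken as pairs. Alternatives were neqc, quantile normalisation, median centring, no normalisation between arrays, another spline reference, log2 of the signal plus 16, no background subtraction, a detection filter, eBayes with trend, the methods' t-test, a replicate block, a 2-fold threshold and each array left out. All symbols were matched to RefSeq, 88 of 88, and 75 had a promoter sequence outside chromosome 8. Probe sequences and arrays of total RNA were not used here. Of the marker genes listed for other cell types, 1 is not reported here.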

Additional observations from a re-analysis of the deposited data

How the results depend on the processing

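By the labels, the count of members lower at an unadjusted p under 0.05 (18) became 10 with median centring, 7 with no normalisation between arrays, 9 with log2 of the signal plus 16, 9 with the filter on detection, 11 with eBayes with trend and 11 with the methods' t-test. The count of those higher (3) became 1 with median centring, 6 with no normalisation between arrays and 11 without both arrays numbered 2. Adjusted calls (0) became 1 higher and 2 lower with no normalisation between arrays (DNAJB2, HSP90B1 and DNAJC12) and 5 and 9 without both arrays numbered 2. The count past the authors' threshold became 2 enriched without both arrays numbered 2 and 1 depleted with log2 of the signal plus 16. The median of the members (-0.085) was -0.0084 with neqc, -0.11 with median centring, -0.0021 with no normalisation between arrays, -0.23 with log2 of the signal plus 16, -0.15 with the filter and -0.060 without both arrays numbered 2. With 1 array left out, 2 to 10 members were higher and 10 to 23 lower at an unadjusted p under 0.05 (10 higher without Stau1 IP 2, 10 lower without control IP 1 and 11 lower without Stau1 IP 3), no member passed an adjusted p of 0.05, and the median ran from -0.087 to -0.046.

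On the arrays numbered 1 and 3, the 2 enriched members became 1 with neqc, 4 with no normalisation between arrays, 5 with log2 of the signal plus 16, 5 at a 2-fold threshold and 0 with the methods' t-test. Adjusted calls (5 higher, 9 lower) became 1 and 1 with neqc, 10 and 6 with no normalisation between arrays, and 0 and 0 with log2 of the signal plus 16 and with the methods' t-test. Unadjusted calls (11 higher, 26 lower) became 5 and 17 with the t-test, and those lower became 12 with no normalisation between arrays and 10 with log2 of the signal plus 16. The median (-0.060) was -0.0080 with neqc, 0.086 with no normalisation between arrays, where the median of all targets was 0.13, -0.13 with log2 of the signal plus 16 and -0.096 with the filter. With 1 array left out, 1 to 2 members were enriched, 0 to 12 rose and 0 to 25 fell at an adjusted p of 0.05 (10 and 16 without control IP 1, 12 and 25 without control IP 3, 0 and 0 without Stau1 IP 1 or 3), 7 to 13 were higher and 14 to 30 lower at an unadjusted p, and the median ran from -0.073 to -0.048; the lone array of a group is then assumed to vary like the others.

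With the replicate number as a block, 2 members were higher and 13 lower at an unadjusted p under 0.05 by the labels. With the arrays numbered 1 and 3 the block left 5 members higher and 4 lower at an adjusted p under 0.05. The numbers were not taken as pairs. No background subtraction gave the same values, since the fitted shift of the transformation takes it up.

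Some of the named members changed sign. With the arrays numbered 1 and 3, DNAJC9 was -0.044 with neqc, -0.032 with quantile normalisation, -0.015 with median centring, -0.015 with control IP 1 as spline reference and -0.0034 with log2 of the signal plus 16. HSPA1B was -0.15 with median centring, -0.025 with no normalisation between arrays and -0.036 with the other reference, and HSPA9 was -0.0032 and -0.0024 with median centring and the other reference. Without both arrays numbered 2, DNAJC9 was 0.0082, HSPA1B 0.062 and HSPA9 0.048. With 1 array left out by the labels, DNAJC24 ran from -0.065 to 1.22, CCT3 from -0.41 to 0.011, DNAJA3 from -0.0089 to 0.48, HSP90AB1 from -0.066 to 0.016, DNAJC9 from -0.26 to 0.021 and HSPA1B from -0.28 to 0.025. In the other comparison CCT8 ran from -0.23 to 0.046, DNAJC9 from -0.066 to 0.083, HSP90AB1 from -0.11 to 0.052, HSPA1B from -0.21 to 0.34, HSPA9 from -0.057 to 0.15 and HSPD1 from -0.12 to 0.011. The cause of these shifts was not tested.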

Other observations

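The co-chaperones ST13, SUGT1, STIP1 and STUB1 were picked out after their values were seen. ST13, which steadies Hsp70 in its client-bound state, read 1617, 1784 and 1732 in control IPs 1, 2 and 3 and 1180.2, 881 and 1136 in Stau1 IPs 1, 2 and 3. SUGT1, a partner of Hsp90 needed for kinetochore assembly, read 591, 639 and 588 in the control IPs and 437, 362 and 421 in the Stau1 IPs. In either the labelled groups did not overlap, with log2 fold changes by the labels of -0.73 (SE 0.097, limma adjusted p = 0.165) and -0.52 (SE 0.067, limma adjusted p = 0.161). STIP1, which links Hsp70 to Hsp90, read 14053, 11276 and 14572 in the control IPs and 6774, 19918 and 8781 in the Stau1 IPs, and STUB1, a ubiquitin ligase that works on chaperone clients, read 6134, 5027 and 5449 in the control IPs and 3209.7, 7495 and 3715 in the Stau1 IPs. As for HSPB1, the array labelled Stau1 IP 2 was the highest of the 6 for both STIP1 and STUB1, and Stau1 IP 1 and 3 were the lowest, before and after normalisation. How many genes of the list share this order was not counted.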
